A study of Homo sapiens with 6 samples.

Results

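The genes described are RFX1 to RFX7, members of the regulatory factor X family of transcription factors, as they stand in the merged transcript assembly of a human beta cell experiment. They were taken by gene name, with every transcript model that carries one of the 7 names, which gave 7 of 25211 gene names and 15 of 55083 models. The assembly was built for 6 libraries of EndoC-βH1, an insulin-producing cell line from human pancreas, transduced with a lentiviral hairpin RNA against the INS promoter. In 3 libraries the hairpin was induced by 7 days of doxycycline at 1 mg/mL, the dose the labels give, and 3 negative control libraries received no doxycycline, so the drug and the hairpin cannot be told apart. The deposited assembly merges both groups and holds exon positions without any abundance, so it gives no level, no fold change and no spread between replicates for any RFX gene, and the cell type could not be checked against its markers. Reference transcripts were carried into it for genes of every kind, and the presence of an RFX model is therefore no measure of its expression. Of the 15 models, 14 were reference transcripts, which match a RefSeq transcript intron by intron, and 1 was a joined model, whose splice junctions overlap those of RefSeq transcripts while its whole intron chain equals none of them.

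RFX proteins bind the X-box, an inverted repeat found in promoters of genes for cilia and for major histocompatibility complex (MHC) class II molecules, through a winged-helix domain that the whole family shares. RFX1, RFX2 and RFX3 regulate genes of cilia, and in the mouse RFX3 is needed for the differentiation and function of beta cells. RFX6 directs the formation of islet endocrine cells, RFX4 is known from brain and testis, RFX5 is the DNA-binding subunit of the complex that switches on MHC class II genes, and RFX7 is a broadly expressed member linked to the response to p53.

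The feature that joins the 7 genes is the DNA-binding domain. Its best conserved stretch is shown first, since exon junctions are compared below in this domain and over longer alignments of the proteins. Each line gives 20 codons read 5′ to 3′ from the GRCh37 genome along the exons of the gene, with the codons of the residues that are identical in all 7 proteins in capitals. The coordinates are those of the outer ends on hg19, and each stretch crosses 1 exon junction whose intron is left out.
RFX1, chr19:14079667-14080825, minus strand: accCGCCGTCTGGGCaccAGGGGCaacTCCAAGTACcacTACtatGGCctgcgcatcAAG
RFX2, chr19:6013077-6016120, minus strand: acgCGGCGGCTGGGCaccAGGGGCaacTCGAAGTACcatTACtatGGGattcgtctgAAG
RFX3, chr9:3288211-3293096, minus strand: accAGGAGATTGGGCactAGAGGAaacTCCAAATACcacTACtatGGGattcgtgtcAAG
RFX4, chr12:107075801-107080689, plus strand: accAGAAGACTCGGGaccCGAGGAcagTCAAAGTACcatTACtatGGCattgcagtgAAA
RFX6, chr6:117203560-117215177, plus strand: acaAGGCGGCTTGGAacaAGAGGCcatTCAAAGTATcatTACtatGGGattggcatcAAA
RFX5, chr1:151316727-151316924, minus strand: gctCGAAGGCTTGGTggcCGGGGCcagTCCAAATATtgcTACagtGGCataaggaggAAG
RFX7, chr15:56394424-56395783, minus strand: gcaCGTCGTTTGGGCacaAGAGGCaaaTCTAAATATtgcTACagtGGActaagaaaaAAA

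Of these 20 codons, 12 encode the same residue in all 7 genes, and the mean identity over the 21 pairs of genes was 77.9% of residues. The capitals differ between the lines mostly in the third base of a codon, and the arginine and leucine codons also in the first, so that the residue is kept while the bases vary. The lines for RFX1, RFX2 and RFX3 share most of their other residues too, whereas RFX5 and RFX7 have the codons tgc and agt where the other 5 genes encode histidine and tyrosine.

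The RFX genes were large, with a single exception, RFX5, and all of them had more exons than the median gene name, RFX7 the fewest. Their spans on the genome were above the median of 23643.5 bases over 21490 multi-exon gene names in 6 of 7 genes, and their exon number was above the median of 7 in all 7. RFX3 was the longest, with 307705 bases, more than 96.6% of gene names. RFX4 followed with 179898 bases, RFX7 with 152753, RFX2 with 117490, RFX6 with 54951 and RFX1 with 44793. RFX5 covered 6654 bases, which only 18.4% of gene names fell below, although it still had 11 exons. The exon numbers of the longest models were 21 in RFX1, 19 in RFX6, 18 each in RFX2, RFX3 and RFX4, 11 in RFX5 and 9 in RFX7. The longest intron measured 130150 bases in RFX3, 63821 in RFX7, 62888 in RFX2, 30448 in RFX4, 15727 in RFX6, 12207 in RFX1 and 739 in RFX5, against a median of 9222 over the same gene names. In RFX1, RFX2, RFX3 and RFX7 this was the first intron of the transcript. Of the genes, 5 lie on the minus strand, and RFX4 and RFX6 on the plus strand.

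**Figure D1:**
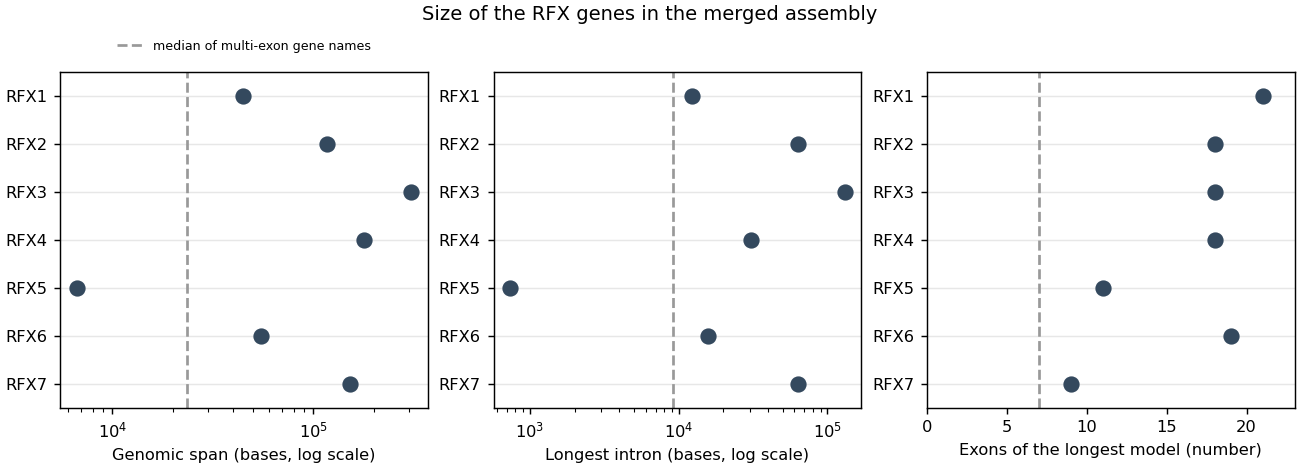
Genomic span, longest intron (both in bases on a log scale) and exon number of the longest model for the 7 RFX genes, with 1 point per gene and a dashed line at the median of all multi-exon gene names. RFX5, at 6654 bases and with a longest intron of 739 bases, is the one gene left of the line in the first panels, and all 7 genes lie right of it in exon number.

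The number of models was uneven over the family. RFX3 had 5, RFX4 had 3, RFX2 and RFX5 had 2 each, and RFX1, RFX6 and RFX7 had 1 each. Together the 15 models used 121 distinct exons and 114 distinct introns, began at 11 start sites and stopped at 9 ends. The 11 start sites carried 11 start site tags of the file, and no pair of starts or of ends lay within 50 bases of each other. RFX3 and RFX4 had 3 starts each and the other genes 1 each. RFX3 had 3 ends and every other gene 1. The alternatives at RFX4 were thus at the 5′ side, those at RFX2 and RFX5 were internal, and those at RFX3 lay at both sides.

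A joined model was present at 1 of the 7 RFX genes (14.3%), against 12.4% of the 21516 gene names with a multi-exon reference transcript, a share near the background. That share depends on how many reference transcripts a name has. It was 44.9% (556 of 1238, exact Clopper-Pearson 95% interval 42.1 to 47.7%) for names with 4, the number RFX3 has, and 33.8% for names with 3, as RFX4. It was 5.99% for names with 2, as RFX2 and RFX5, and 0.719% for names with 1, as RFX1, RFX6 and RFX7. Such intervals cover counting error over names only.

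RFX3 (chr9:3218297-3526001 on hg19) had 4 reference transcripts that differ at both ends. NM_134428 and NM_001282116 begin at 3526001 with a 255-base exon and run to the far 3′ end at 3218297, where the last exon has 6984 bases. They differ by a 67-base second exon present in NM_134428 alone. NM_001282117 begins at 3489487 inside the intron that precedes the 125-base exon of those transcripts, with exons of 119 and 120 bases, and ends early at 3270929. NM_002919 begins at 3395596 and ends at 3247037. All of the models share the exons of 125, 98, 259, 75, 182, 120, 122 and 113 bases, and the 125-base exon holds the ATG of the longest reading frame in each of them.

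The joined model of RFX3 (chr9:3247037-3489487, 16 exons, 3210 spliced bases) consisted of the 2 first exons of NM_001282117 followed by all 14 exons of NM_002919. Its start was that of NM_001282117, with which it shares the start site tag, and its end was that of NM_002919. Its 15 introns could be made from 2 runs of reference introns, the first 10 from NM_001282117 and the remaining 5 from any of the other 3 transcripts, and introns 3 to 10 belong to both. The file tags NM_134428 as its nearest reference, although it shares 13 of its 16 exons with that transcript and 14 with NM_002919. Of the 5237 joined models in the assembly, 4875 (93.1%) took both their start and their end from reference transcripts of the same gene name. In 457 of these (9.37%), RFX3 included, that start and that end occur together in no single reference transcript.

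The reading frame of the joined RFX3 model was one already held by RefSeq. Its longest frame, 707 amino acids, was identical to that of NM_002919, with 247 bases before the ATG in the joined model against 8 in NM_002919, and with 839 bases after the stop in both. Set against NM_134428, the tagged nearest transcript, it would instead appear as a frame of 707 amino acids against 749, with the first 656 in common. The model carries no protein tag in the file, unlike all 14 reference transcripts. Each of its 15 introns occurs in GENCODE, whereas the whole chain is neither a GENCODE chain nor a consecutive part of one. The closest GENCODE transcripts, 3 in number, each held 13 of the 15 introns (86.7%) and began elsewhere, and a further one held 10 (66.7%) and began inside the first exon of the joined model.

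**Figure D2:**
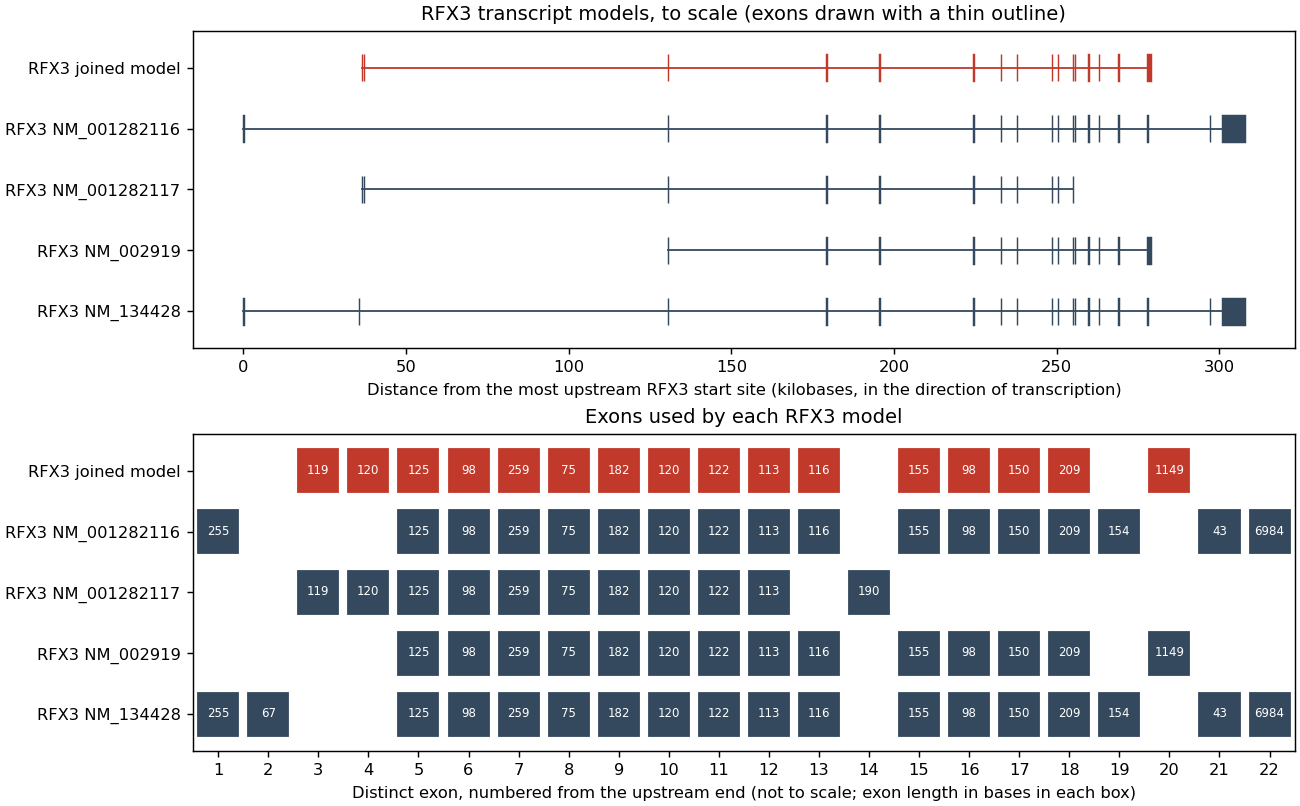
The 5 RFX3 models: above, exons as boxes and introns as lines against the distance from the most upstream start in kilobases; below, the same exons as 22 numbered columns, not to scale, with the exon length in bases in each box. The joined model (red) has the first exons of 119 and 120 bases of NM_001282117 and, from the 125-base exon to the 1149-base last exon, every exon of NM_002919.

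Of the 3 ends of RFX3, 2 lie in introns of the long transcripts and are reached by reading through a splice donor. In NM_002919 and the joined model, the last exon of 1149 bases is the 154-base internal exon of the long transcripts continued past its donor. In NM_001282117, the last exon of 190 bases is a 116-base internal exon continued in the same way. Both extensions are shown from a few codons before the donor to the stop, since they encode the ends by which the RFX3 proteins differ. The GT of the unused donor and the stop codon are in capitals, and each line is in frame from its first base.
RFX3 NM_002919 and joined model, chr9:3247876-3248043, minus strand: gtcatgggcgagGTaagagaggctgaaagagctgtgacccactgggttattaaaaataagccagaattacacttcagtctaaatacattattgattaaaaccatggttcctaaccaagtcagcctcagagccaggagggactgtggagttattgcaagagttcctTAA
RFX3 NM_001282117, chr9:3270963-3271016, minus strand: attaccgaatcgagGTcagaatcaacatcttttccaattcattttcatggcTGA

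The long extension added 51 codons, and the short one 12, before a stop was reached. The 3 distinct RFX3 proteins are therefore of 749, 707 and 413 amino acids with a common beginning. NM_001282117 shares its first 400 residues with the 749-residue protein and ends with 13 of its own, and the 707-residue protein shares 656 and ends with 51 of its own. The stretch of RFX3 between the outer ends of its alignment with RFX4, residues 139 to 656, has 518 residues, of which 458 were aligned. It starts before the DNA-binding domain and goes on into the conserved region after it. That stretch is complete in 4 of the 5 RFX3 models, the joined model included, and NM_001282117 keeps 262 of its 518 residues (50.6%). The alignments of RFX3 with RFX1 and RFX2 reach further, to residues 703 and 698 of RFX3. The 707-residue protein departs from the 749-residue one after residue 656, so it lacks the last part of the region aligned with RFX1 and RFX2. Last exons that extend an internal exon of the same gene occurred in 1872 of 32714 multi-exon reference transcripts of names with 2 or more (5.72%).

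The start of NM_002919 falls exactly on the 5′ end of an exon that is internal in the other 4 RFX3 models. The 20 bases before this start and the first 10 of the transcript are shown with the AG of the splice acceptor in capitals.
RFX3 start of NM_002919, chr9:3395587-3395616, minus strand: ttcattttaatctatttcAGagaccatcat
A start of this kind was present in 513 of the same 32714 reference transcripts (1.57%). Of the 11 RFX start sites it was the only one on an internal exon's 5′ end. In the joined model the same exon is the third.

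RFX2 (chr19:5993175-6110664), which regulates cilium genes and spermatid development in the mouse, had 2 reference transcripts that share their start, their end and all splice sites except those of 1 exon. NM_000635 contains a 75-base exon that NM_134433 skips. The exon encodes 25 residues in frame, and the frames of 723 and 698 amino acids are identical over the first 175 and the last 524 residues. In RFX3 the corresponding exon also has 75 bases and is present in all 5 models, the joined model included. The 2 exons are shown with the bases that are identical in both in capitals.
RFX2, chr19:6026174-6026248, minus strand: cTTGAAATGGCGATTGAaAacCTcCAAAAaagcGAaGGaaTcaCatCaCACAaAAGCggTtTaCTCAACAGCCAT
RFX3, chr9:3301546-3301620, minus strand: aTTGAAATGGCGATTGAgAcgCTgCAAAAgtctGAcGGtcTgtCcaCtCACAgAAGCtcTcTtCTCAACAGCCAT
They were identical at 53 of 75 bases (70.7%), with the matches concentrated at both ends of the exon. RFX1 has no counterpart of this exon in the alignment, where 0 of the 25 residues found a partner. The RFX1 protein aligned over 659 residues with either form of RFX2. The score was 1940 with the skipped form and 1905 with the long form. Since the 25 extra residues of the long form stayed unaligned, the lower score adds no separate support.

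RFX1 (chr19:14072342-14117134), the first family member described, had 1 model of 21 exons with a frame of 979 amino acids, the longest of RFX1 to RFX3. Its frame is longer than those of RFX2 and RFX3 at the amino end, since the alignments with them begin at residues 241 and 268 of RFX1 and at residues 25 and 29 of RFX2 and RFX3.

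The exon structures of RFX1, RFX2 and RFX3 were alike in detail. Exon junctions fell at the same residue and the same codon phase in 14 cases between RFX1 and RFX2, 13 between RFX1 and RFX3, and 14 between RFX2 and RFX3. The proteins of these pairs were 63%, 66% and 70% identical over 659, 644 and 689 aligned residues. Between RFX2 and RFX3, 13 exons had both of their ends at matched junctions, and 9 of them had the same length to the base, namely those of 75, 182, 120, 155, 98, 150, 209, 154 and 43 bases. The 154-base exon among them is the one that NM_002919 and the joined model of RFX3 read through. RFX1 and RFX2 had 8 of 11 such exons of equal length, and RFX1 and RFX3 had 5 of 10. An exon of 182 bases in both RFX1 and RFX3 is not among these 10, since its ends were not both matched in that alignment.

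**Figure D3:**
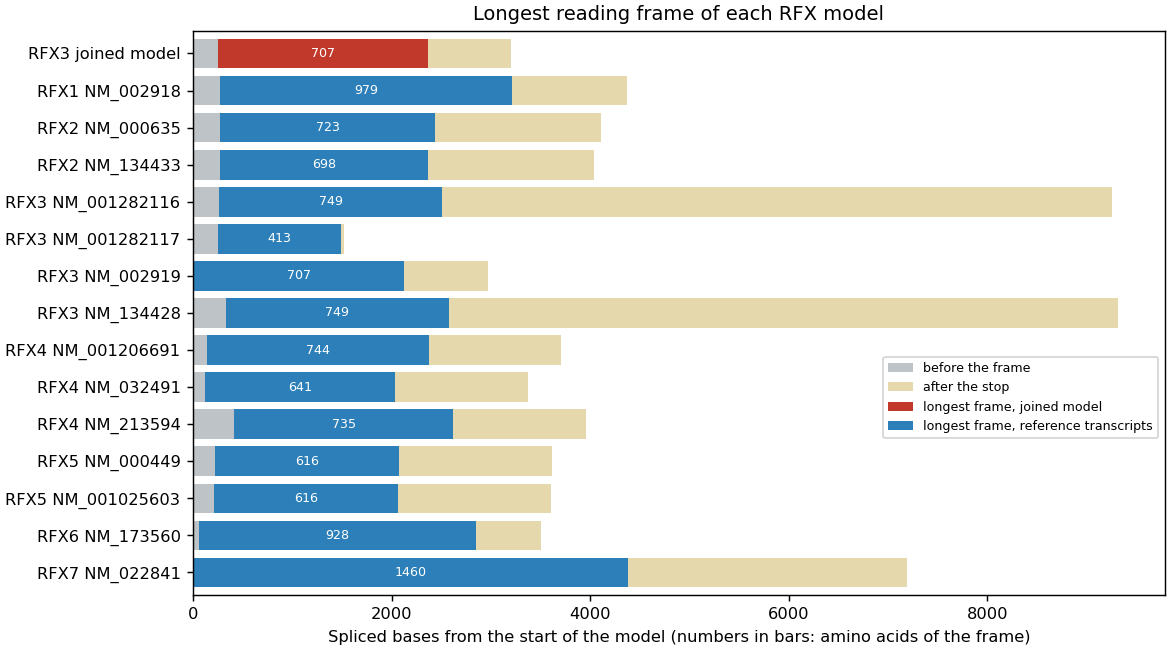
Spliced length of the 15 RFX models in bases, divided into the part before the longest reading frame, the frame (its length in amino acids is printed in the bar) and the part after the stop. The joined RFX3 model is at the top, and its frame of 707 amino acids equals that of NM_002919; the 2 RFX3 transcripts with 6745 bases after the stop have the longest such parts, and RFX7 begins with its ATG.

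RFX6 (chr6:117198376-117253326), the islet regulator whose loss in humans causes neonatal diabetes with gut malformations, had 1 reference transcript of 19 exons and no joined model. Its frame covered 928 amino acids, with 63 bases before the ATG and 657 after the stop. It contains a 28-base internal exon, the shortest internal exon among the RFX models, and a 513-base internal exon, the longest.

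RFX4 (chr12:106976685-107156582) had 3 reference transcripts with 3 starts and 1 end. NM_213594 starts at 106976685, NM_001206691 at 106994915 and NM_032491 at 107078477. The frames had 735, 744 and 641 amino acids in that order of transcripts. The 2 longer proteins share their last 723 residues, and NM_032491 shares its last 609 with both. The 40-residue part of the DNA-binding domain compared below was incomplete in the frame of NM_032491. The other 14 RFX models, among them the joined model of RFX3, contained all of it. This transcript starts between the exons that encode the domain. Its protein as read here would keep only the end of that part, which the shared 214-base exon encodes.

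RFX4 and RFX6 resembled each other in exon structure and not RFX1 to RFX3. They shared 10 junctions at the same residue and phase, and the 4 exons with both ends at matched junctions, of 124, 62, 78 and 118 bases, were of equal length in both. Their proteins were 41.8% identical over 634 aligned residues. RFX4 shared 0 junctions with each of RFX1, RFX2 and RFX3, although 39.3 to 43.2% of its residues were identical to theirs over 421 to 458 aligned residues. RFX6 shared 1 junction with RFX2 and 0 with RFX1 and RFX3.

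RFX5 (chr1:151313116-151319769) had 2 reference transcripts that differ by 7 bases. Exon 2 has 125 bases in NM_000449, where the donor is GT, and 118 bases in NM_001025603, where it is GC. Both donors are shown with the first bases of each possible intron in capitals.
RFX5 tandem donors, chr1:151318950-151318979, minus strand: taattttcggagaagGCaagtgGTgagaaa
The upstream donor was the only GC-AG intron among the 114 distinct RFX introns, of which 112 were GT-AG. On chromosomes 1 to 22, X and Y, 0.982% of 219346 reference introns were GC-AG. The difference lies before the reading frame, which begins in exon 3, so both transcripts encode the same 616 amino acids, with 214 bases before the ATG in NM_001025603 and 221 in NM_000449, and carry 1 protein tag. RFX5 was also compact within its span, since its exons made up 54.4% of it, against 0.697 to 9.77% in the models of the other 6 genes.

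RFX7 (chr15:56382731-56535483) had 1 reference transcript with 9 exons, the fewest of the family, and the longest frame, 1460 amino acids. The last exon alone had 6088 bases. The model begins with the ATG itself, with 0 bases before the frame, so the RefSeq record used by the assembly does not include a 5′ leader. It was the only RFX reference transcript whose intron chain was not found in GENCODE, where 13 of the 15 chains occurred, and the other chain outside GENCODE was the joined model of RFX3.

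A single intron of the RFX7 chain was not found in GENCODE. Intron 5 (chr15:56394450-56395749, 1300 bases) has the ends AT and AT in the deposited model, while GENCODE places it 2 bases away at 56394452 to 56395751 with AT and AC, the ends of a class of introns removed by the minor spliceosome. Both placements give the same spliced sequence, because AT stands on either side of the junction. The 30 bases around each end are shown with the splice bases of the GENCODE placement in capitals; the exon of the deposited model ends with base 15 of the first line and begins again with base 17 of the second.
RFX7 donor side, chr15:56395735-56395764, minus strand: gaggcaaatctaaATatcctttaccagaat
RFX7 acceptor side, chr15:56394436-56394465, minus strand: taactgtttattACatattgctacagtgga
With the intron placed as in GENCODE, the RFX7 chain was a consecutive part of a GENCODE chain, and 14 of 15 models then had a match of that kind. The junction lies inside the conserved stretch of the DNA-binding domain printed above for RFX7.

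The same intron bears on how RFX5 and RFX7 compare. In a 40-residue part of the DNA-binding domain that aligned without gaps in all 7 proteins, 18 residues were identical in all, and the mean identity over pairs was 66.8%. The highest identities were 95% for RFX2 with RFX3, 92.5% for RFX1 with RFX2 and 90% for RFX1 with RFX3. RFX4 and RFX6 were 75% identical, and RFX4 was 72.5 to 77.5% identical to RFX1, RFX2 and RFX3. RFX5 and RFX7 were 67.5% identical to each other and 52.5 to 60% to the other 5. Exon junctions cut this part at different places. In RFX1, RFX2 and RFX3 a junction fell in codon 27 after its second base. RFX4 and RFX6 had junctions just before codon 11 and in codon 31 after its second base. RFX5 had the codon 31 junction alone. RFX7 had its junction in codon 32 after the first base as deposited, and in codon 31 after the second base with the intron placed as in GENCODE, the place used by RFX4, RFX5 and RFX6.

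Taken as RFX1 to RFX3, RFX4 with RFX6, and RFX5 with RFX7, a grouping made after the junctions were counted, the 5 pairs within groups shared 4 to 14 junctions, and the 16 pairs between groups shared 0 or 1. Between groups, 13 pairs shared 0 and 3 shared 1. With the RFX7 intron placed as in GENCODE, the pairs within groups shared 5 to 14, and between groups 11 pairs shared 0 and 5 shared 1. RFX5 and RFX7 shared 4 junctions as deposited and 5 with that placement, over 394 aligned residues that were 37.3% identical. Both aligned with RFX1, RFX2, RFX3, RFX4 and RFX6 over 70 to 139 residues alone, each a stretch that overlaps the conserved part of the DNA-binding domain. The longer alignments of the other 5 genes leave more places where a junction could be shared.

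**Figure D4:**
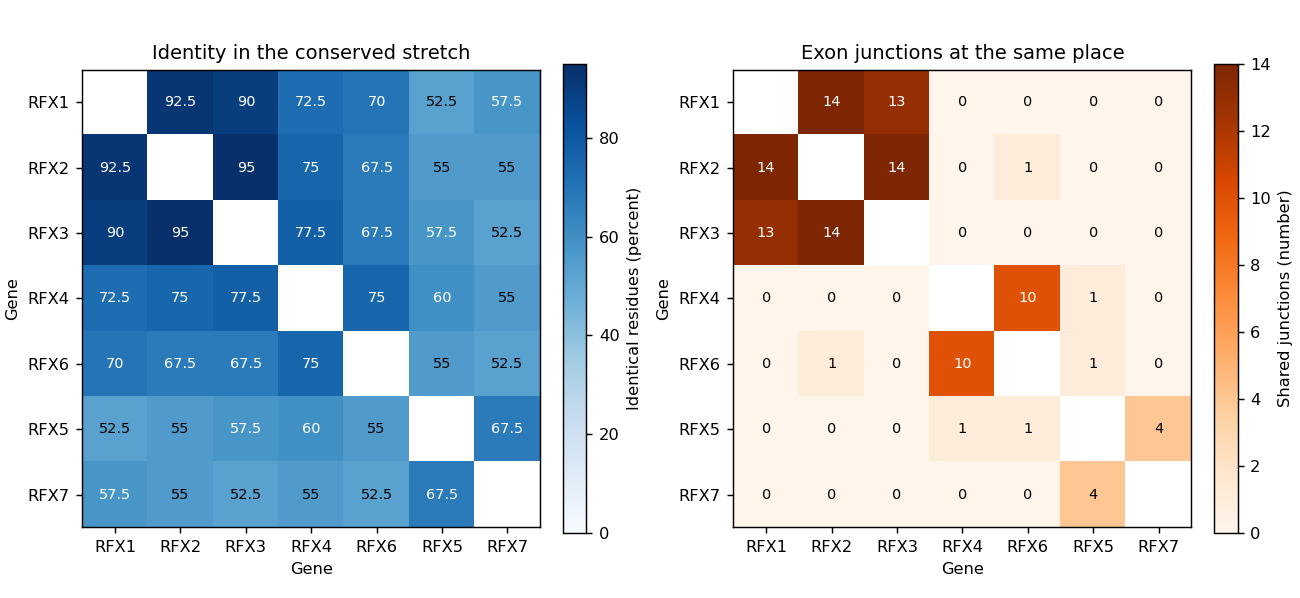
Pairwise comparison of the 7 RFX genes, ordered RFX1, RFX2, RFX3, RFX4, RFX6, RFX5, RFX7: left, percent of identical residues in the 40-residue part of the DNA-binding domain; right, number of exon junctions at the same residue and codon phase in the deposited models. Shared junctions reach 13 and 14 among RFX1 to RFX3, 10 between RFX4 and RFX6 and 4 between RFX5 and RFX7, and are 0 or 1 in all other cells.

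The sequence around the start sites differed most within RFX3. Windows of 300 bases, 250 before and 50 after each start, had a median of 59.3% G and C and 16 CG dinucleotides over the 30991 start sites of the assembly. The upstream RFX3 start at 3526001 had 70.7% and 27 CG. The start at 3489487, used by the joined model and NM_001282117, had 32.3% and 0 CG, and 1.74% of all windows were lower in G and C. The inner start of NM_002919 had 36.7% and 3 CG. The 120 bases before the first of these starts and before that of the joined model are shown with CG in capitals.
RFX3 before the start at 3526001, chr9:3526002-3526121, minus strand: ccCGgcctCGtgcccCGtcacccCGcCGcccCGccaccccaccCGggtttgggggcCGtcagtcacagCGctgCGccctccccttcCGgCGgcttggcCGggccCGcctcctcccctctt
RFX3 before the start at 3489487, chr9:3489488-3489607, minus strand: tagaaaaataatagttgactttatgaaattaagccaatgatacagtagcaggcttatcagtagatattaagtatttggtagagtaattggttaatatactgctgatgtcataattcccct
The first stretch has 14 CG and 79.2% G and C, and the second 0 and 30%.

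The starts of RFX4 differed less. Those at 106976685, 106994915 and 107078477 had 56%, 51.3% and 44.7% G and C and 16, 2 and 3 CG. The single starts of the other genes had 76.7% and 35 CG in RFX6, 68.7% and 36 in RFX2, 67% and 17 in RFX7, 58.3% and 23 in RFX1, and 56% and 17 in RFX5. In both RFX genes with several starts, the most upstream one had the most CG dinucleotides.

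**Figure D5:**
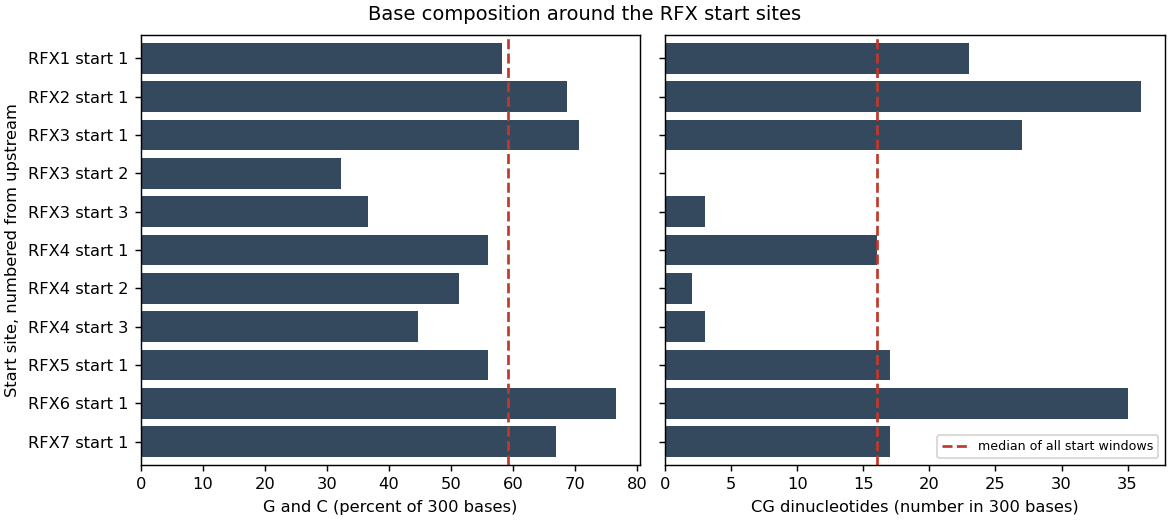
G and C content (percent) and number of CG dinucleotides in the 300-base windows around the 11 RFX start sites, numbered from upstream within each gene, with a dashed line at the median of all 30991 windows. RFX3 start 2, the start of the joined model, has 32.3% G and C and 0 CG; RFX3 start 1 has 70.7% and 27.

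The windows were searched on both strands for the X-box, the site that RFX proteins bind, written as GTTNCC and GGNAAC with 0 to 3 bases between them. It was found in 1 of the 11 RFX windows, and in 0.642% of all windows. The match is a perfect inverted repeat of 14 bases that begins with the first transcribed base of RFX4 NM_001206691 and is shown in capitals.
RFX4 start at 106994915, chr12:106994907-106994936, plus strand: cctgtggcGTTGCCATGGCAACccactgac
The wider form GTNNCC and GGNNAC, which includes the first form, occurred in the same window alone among the 11 and in 3.73% of all windows. A single arm of the X-box, GTTGCC or GGCAAC, occurred in 2 of the 11, RFX1 and RFX4, and in 12.3% of all. CCAAT or ATTGG, the core of the Y-box bound by the NFY proteins, occurred in 5 of the 11, in RFX1, RFX2, RFX3, RFX4 and RFX5, and in 34.7% of all. TGACG or CGTCA, a core of sites for CREB proteins, occurred in 3 of the 11, in RFX1, RFX3 and RFX4, and in 24.8% of all. A match of letters is no evidence of binding in these cells, and no binding was measured.

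The partners and target genes of the RFX proteins were looked up in the same assembly, in lists drawn up with earlier results of these data known. Of the 7 listed partners of RFX5 at MHC class II promoters, 2 had a joined model: CIITA, the master co-activator of these genes, with 1 and NFYC, a subunit of NFY, with 3. RFXAP and RFXANK, the other subunits of the RFX5 complex, had 1 and 4 reference transcripts and no joined model. Of 9 listed MHC class II genes, HLA-DRB1 alone had joined models, and its 2 were on haplotype copies of chromosome 6, with 0 on the main chromosome. Among 11 listed cilium genes, IFT122, a subunit of the transport particles of cilia, had 2 and SPAG6, a protein of the central apparatus of motile cilia, had 1. In the beta cell list, 5 of 14 multi-exon genes had one (35.7%): PAX6, CACNA1A and CACNA1D with 1 each, SLC30A8 with 3 and CACNA1C with 8. RFX8, the remaining gene named for the family, had 1 reference transcript of 12 exons, and neither it nor ARID2, which also has an RFX-type domain, had a joined model. Over all multi-exon gene names the share was 12.4%, and lists of 2 to 14 genes leave wide margins around their own.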

How the data were processed

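RNA from 3 induced and 3 negative control libraries of EndoC-βH1 was sequenced, and 1 merged transcript assembly of the series was analysed here. Per the submitters' processing notes, TopHat2, Cufflinks and hg19 were used, without versions. The deposited values are other than expression: the positions on hg19 where each exon begins and ends, in 555595 lines of which 0 has a score, so depth is unknown and nothing could be tested between groups. Settings of alignment and assembly: not given in the sources used here.

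Reference transcripts were models of the exact-match class with a RefSeq name (49753), and joined models those of class j (5237). The remaining 93 exact matches had a Cufflinks name. Models were rebuilt in Python 3.11.15 with numpy 2.4.6, and intervals were computed with scipy 1.17.1. Spliced sequence came from the GRCh37 genome, on which 98.5% of reference introns were GT-AG. Chains were compared with GENCODE 44 mapped to GRCh37. The frame was the longest from ATG to stop. A stop was early if over 50 bases before the last junction, as in 0 RFX models. Proteins were aligned in pairs with Biopython 1.88 and together with MAFFT 7.526. Reading frames, genome positions and runs of introns were tested on simulated models, none of which needed 2 runs. The alignments and junction comparisons were not tested in this way.

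All 7 members were named, with the listed partners that have a joined model and RFXAP, RFXANK, CIITA and RFX8. Members and lists were chosen with earlier results of these data known. The conserved part (40 residues, after no gap-free part of the longer length first tried was found), the motifs, the grouping by junctions and the second placement of the RFX7 intron were chosen after the models and sequences had been seen.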

Additional observations from a re-analysis of the deposited data

How the results depend on the processing

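No paired analysis was possible because the assembly holds exon positions and nothing measured per library, and the planned replicate block and fits without single libraries gave no value. Of 28 alternatives, 24 left their value as it was. The RFX7 placement named last moved the number of models whose chain is a consecutive part of a GENCODE chain to 14, against 13 as deposited. The share of gene names with a joined model, 12.4%, became 13.5% when at least 3 exons were required and 27.5% when at least 2 reference transcripts were; by construction both settings leave out names. Read as the first frame of at least 100 codons, RFX4 NM_213594 had 110 amino acids in place of 735. The other 14 frames kept their length. Model, start and end counts kept their values under every setting run. Placing the RFX7 intron as in GENCODE was chosen after seeing the data. Depth is unknown, so no RFX model can be called expressed or absent.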

Other observations

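The upstream frame of RFX4 NM_213594, 110 codons at bases 404 to 736 of the transcript, begins before the longest frame, which starts at base 415, and overlaps it in another phase. It was the only frame of at least 100 codons found before the longest one in the 15 RFX models.

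Among the RFX genes, RFX2 and RFX4 alone were overlapped by other gene names, and the distances below run from start to start. The third start of RFX4, 107078477, lies 1 base from the start of LOC100505978 on the opposite strand, at 107078478, and exons of both overlap. LOC100287944 spans RFX4, and LOC100128568 overlaps RFX2, both on the opposite strand and without overlap between exons. The other nearest starts of another gene were 19578 bases away at RFX5 (PI4KB), 21883 at RFX1 (RLN3), 24980 at RFX2 (ACSBG2), 48156 at RFX6 (GPRC6A), 122139 at RFX7 (TEX9) and 372645 at the upstream start of RFX3 (GLIS3-AS1).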
